A study of Mus musculus with 33 samples.

Results

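Late RNA loss is described here as the change of each transcript between 2 and 4 h of actinomycin D in the WT cells. The comparison takes 6 of the 33 samples of the series, the 3 WT libraries at 4 h and the 3 WT libraries at 2 h, chosen by their labels, and no library at 0 h enters the contrast. The cells were neural stem cells from the hippocampus of mice at postnatal day 0.5, labelled Nestin-WT and grown in medium with bFGF and EGF. All 6 libraries were made after actinomycin D at 5 µM, for 4 h in one group and for 2 h in the other. Used beside them were 6 libraries of the same 2 times labelled Ythdf2 cKO, a conditional knockout of an m6A reader (genotype Nestin-cKO, same dose), the 6 libraries at 0 h, and an m6A antibody pull-down of untreated WT cells with its input (3 each). The labels do not say whether replicates came from separate animals or cultures, so the p-values measure the spread between these libraries, which may be technical.

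Actinomycin D intercalates into DNA and stops RNA polymerases, so that existing transcripts decay and are not replaced. Messenger RNAs of immediate early genes, many transcription factors and cell cycle regulators are known to be short-lived, whereas those of ribosomal proteins and metabolic enzymes are known to be long-lived. Poly(A) tails are shortened by the CCR4-NOT complex, caps are removed by decapping enzymes, and the m6A mark recruits YTHDF proteins that bring transcripts to this machinery. No spike-in RNA was used, so each value is a share of the library. A transcript that decays more slowly than the rest gains share without being made, and a fall is a loss relative to other transcripts. In bulk RNA, fewer cells of a type and less RNA per cell cannot be told apart.

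Total counts were 12602808 to 18625880 in the WT libraries at 4 h and 13534935 to 20124800 at 2 h. Of 26621 gene symbols, 14029 passed the filter on low counts and were tested. The first principal component of the 6 libraries carried 36.1% of the variance, and it separated 4 h from 2 h. Neural stem cell markers summed to 34200 to 35600 TPM at 4 h and 29800 to 31600 TPM at 2 h over 10 genes. Microglial Cx3cr1, Tmem119, C1qa and C1qb, endothelial Cldn5 and ependymal Tmem212 were at 0 in all 6 libraries. These were 4 of 12 microglial, 1 of 12 endothelial and mural and 1 of 10 ependymal markers. The microglial list summed to 11.6 to 18.2 TPM at 4 h and 9.81 to 12.7 TPM at 2 h. The endothelial and mural list summed to 6.07 to 7.41 and 6.60 to 8.47 TPM. The ependymal list summed to 30.7 to 37.0 and 23.1 to 29.0 TPM. Marker lists of neurons summed to 445 to 574 TPM at 4 h and 567 to 639 TPM at 2 h, and those of astrocytes, which share genes with neural stem cells, to 5760 to 7470 and 5190 to 7740 TPM. Oligodendrocyte lineage markers summed to 420 to 494 TPM at 4 h and 444 to 521 TPM at 2 h, and fibroblast and meningeal markers to 153 to 229 and 132 to 208 TPM. The part of other cells in the results was not tested.

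Ythdf2, the gene the cKO label names, had 63.0, 60.4 and 88.5 normalized CPM in WT libraries at 4 h, against 69.3, 66.6 and 88.0 at 2 h. The groups overlapped, and its log2 change was -0.079 ± 0.35 (SE, adjusted p = 0.954). In the libraries labelled cKO its counts went against the label, with means of 1400 ± 37.0 CPM at 4 h and 1200 ± 99.3 CPM at 2 h, against WT means of 70.6 ± 15.6 CPM at 4 h and 74.6 ± 11.7 CPM at 2 h (SD, n = 3 each). These are therefore called the libraries labelled cKO throughout.

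Between 2 and 4 h in WT cells, the transcripts that lost share included some factors of ribosome assembly, nuclear pore proteins, histone-modifying enzymes and zinc finger proteins. The nuclear pore proteins were grouped after values were seen. Fewer members of each group were called with any 1 WT library at 4 h left out. Of the 329 genes called (2.35% of those tested), 324 fell (2.31%) and 5 rose (0.0356%) at an adjusted p under 0.05 in edgeR's quasi-likelihood test. Of the fallen genes 226 fell by more than 2-fold, and the called log2 changes ran from -3.29 to 0.80. The median over all genes was 0.0095. In every one of the 324 genes the 3 libraries at 4 h lay below the 3 at 2 h, which held for 2593 of all genes tested (18.5%). The libraries at 4 h lay above those at 2 h in 2198 genes (15.7%).

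Libraries with the same number in the labels deviated together, so the replicate number was also used as a block. What the number stands for is not in the labels. With the block, 1035 genes fell (7.38%) and 375 rose (2.67%), and all 324 fallen genes were among the 1035. Calls were 98.5% falls without the block, 73.4% with it and 84.9% in DESeq2, with 114 rises and 640 falls. Scaling by library size alone moved the median of all genes to -0.18, scaling to ribosomal protein genes to -0.32, and deposited TPM to -0.15. Under library size 904 genes fell and 0 rose, and under the ribosomal reference 1352 fell and 0 rose. The direction of small changes thus rests on the scaling, and changes below are relative to the TMM median.

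Leaving out 1 library lowered the count of fallen genes each time. It was 54, 78 and 164 without WT 4 h replicates 1, 2 and 3, and 129, 112 and 113 without WT 2 h replicates 1, 2 and 3. In each case 0 genes rose. When the fit held only the 9 WT libraries, a choice made after seeing the data, 1756 genes fell and 1068 rose. With all WT libraries of 1 replicate number left out, another choice made after seeing the data, Ddx10, Dtwd1, Mphosph10, Taf1b and Zfp828 fell without number 1, Mphosph10 and Msh6 fell without number 3, and 0 genes were called without number 2.

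**Figure D1:**
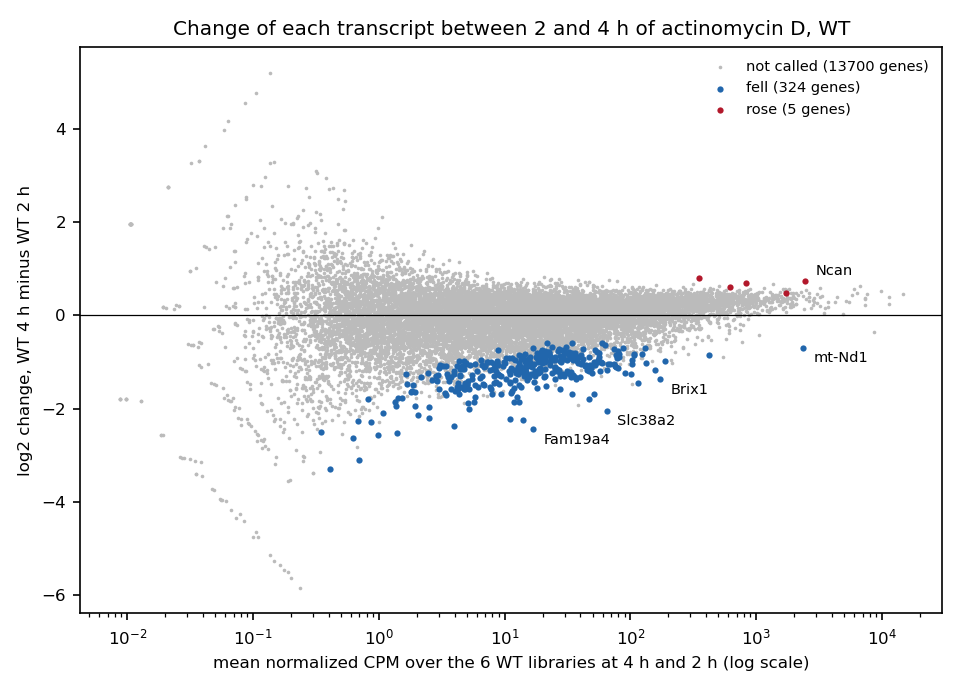
Each point is a tested gene, with its mean normalized CPM over the 6 libraries on a log axis and its log2 change, WT 4 h minus WT 2 h, on the vertical axis. The 324 fallen genes in blue spread over most levels, whereas the 5 risen genes in red lie among the more abundant transcripts.

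The largest falls among transcripts of at least 16 CPM included a transporter and several factors of ribosome assembly. The 12 falls and 4 rises named by size were chosen among called genes whose groups did not overlap. Their separation is therefore not a separate result. Slc38a2, a transporter of neutral amino acids (chromosome 15, 96687392 to 96699728, GRCm38.p6), had 24.4, 23.3 and 28.5 CPM at 4 h, against 106, 95.6 and 113 CPM at 2 h. Between libraries of the same number, all 3 kept about the same share of the 2 h level, 23.0%, 24.4% and 25.3%. The log2 change was -2.04 ± 0.27 (adjusted p = 0.00103). Fam19a4, which encodes a small secreted chemokine-like protein (chromosome 6, 96831206 to 97060411), had 5.46, 6.20 and 4.14 CPM at 4 h, against 35.3, 23.1 and 27.2 CPM at 2 h. It showed the largest change of this group, -2.44 ± 0.48 (adjusted p = 0.0116), with every library at 4 h far below every library at 2 h.

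Mphosph10, a component of the U3 snoRNP that processes the precursor of 18S rRNA (chromosome 7, 64376541 to 64392236), had 16.7, 20.7 and 25.6 CPM at 4 h, against 71.9, 72.4 and 75.8 CPM at 2 h. The 2 h libraries lay close together and well above the others, and the change was -1.80 ± 0.21 (adjusted p = 3.4e-04). Cirh1a, now named Utp4 and part of the same processing complex (chromosome 8, 106893640 to 106923094), had 17.4, 15.9 and 14.9 CPM at 4 h, against 50.6, 55.4 and 49.8 CPM at 2 h. It fell by 1.69 on the log2 scale to 31.0% of its 2 h mean. Brix1, an assembly factor of the large ribosomal subunit (chromosome 15, 10474779 to 10485937), had 83, 100 and 102 CPM at 4 h, against 238, 248 and 255 CPM at 2 h. Its replicates kept 34.9%, 40.4% and 40.2%, a change of -1.37 ± 0.28 (adjusted p = 0.0146). Taf1b, a subunit of the factor that recruits RNA polymerase I to rRNA genes (chromosome 12, 24498581 to 24558571), had 12.7, 15.8 and 12.5 CPM at 4 h, against 35.4, 43.6 and 44.1 CPM at 2 h. The change was -1.58 ± 0.18 (adjusted p = 3.4e-04).

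Among the other large falls were a translation factor and nuclear pore proteins. Eif1a, an initiation factor that helps the ribosome scan for the start codon, had 16.6, 28.9 and 27.5 CPM at 4 h, against 68.3, 86.7 and 80.2 CPM at 2 h. Replicate 1 was the lowest at both times, and the change was -1.69 ± 0.25 (adjusted p = 0.00201). Nup37, of the Y-shaped scaffold of the pore (chromosome 10, 88146976 to 88178395), had 7.09, 11 and 9.70 CPM at 4 h, against 27.1, 26.6 and 28 CPM at 2 h. Nup153, of the nuclear basket (chromosome 13, 46679902 to 46727849), had 6.78, 9.07 and 12.2 CPM at 4 h, against 25.1, 24.3 and 25.8 CPM at 2 h. Both pore transcripts were tightly grouped at 2 h and fell by 1.56 and 1.42 on the log2 scale.

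Msh6, a DNA mismatch repair protein (chromosome 17, 87975050 to 87990892), had 9.29, 9.07 and 14.9 CPM at 4 h, against 30.0, 34.4 and 31.2 CPM at 2 h. Replicate 3 kept the most, 47.7% of its 2 h level, against 31.0% and 26.3% in the other replicates. Pitpnb, a phosphatidylinositol transfer protein (chromosome 5, 111330697 to 111388359), had 60.5, 60.4 and 63.4 CPM at 4 h, against 161, 180 and 165 CPM at 2 h. Kbtbd2, a substrate adaptor of a cullin ubiquitin ligase (chromosome 6, 56777525 to 56797813), had 11.1, 14.6 and 16.5 CPM at 4 h, against 34.3, 37.0 and 37.3 CPM at 2 h. These 3 transcripts fell by 1.52, 1.46 and 1.36 on the log2 scale. All 12 falls kept an adjusted p under 0.05 under the other normalizations, without the filter, in DESeq2, in limma on TPM, with the block and in the 6 libraries alone. Of the 12, 5 missed it without WT 4 h replicate 1 and 3 without WT 4 h replicate 2. Without any other of the 6 libraries, 1 missed it. Leaving out all WT libraries of 1 replicate number was a choice made after seeing the data. Without numbers 1, 2 and 3 in turn, 10, 12 and 10 of the 12 missed it.

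**Figure D2:**
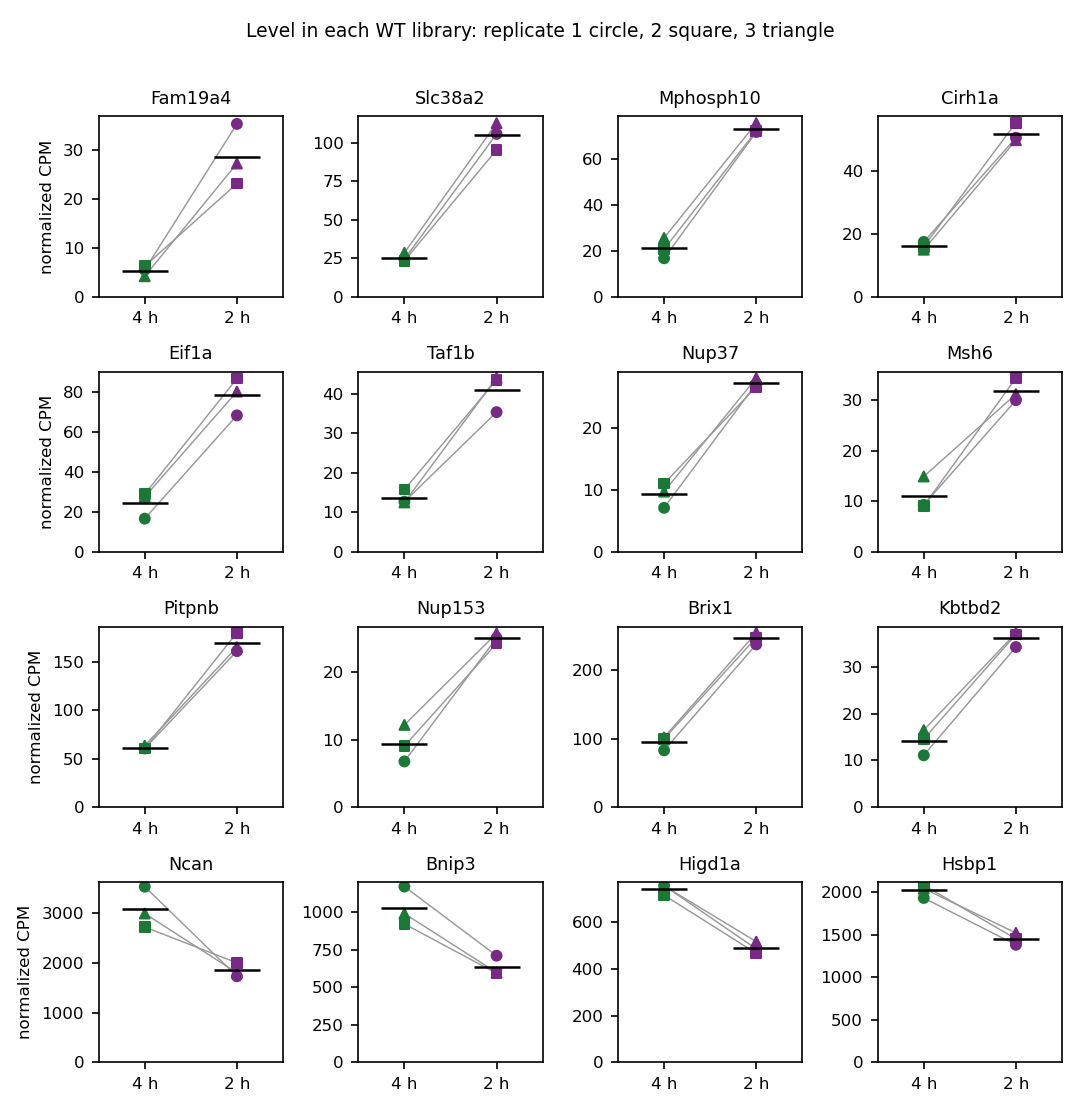
Normalized CPM in each WT library for the 12 largest falls and 4 named rises, with 4 h left of 2 h, a marker per replicate number, grey lines joining libraries of the same number and a black bar at the group mean. In all 16 panels the 3 libraries at 4 h and the 3 at 2 h do not overlap, which was a condition of choice.

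The 5 genes that rose were abundant transcripts with changes under 2-fold. Ncan, which encodes the matrix proteoglycan neurocan (chromosome 8, 70093085 to 70120863), had 3530, 2720 and 2990 CPM at 4 h, against 1730, 2000 and 1800 CPM at 2 h. Its log2 change was 0.74 ± 0.18 (adjusted p = 0.0440). Bnip3, a receptor for removal of mitochondria that low oxygen induces (chromosome 7, 138890836 to 138909506), had 1170, 921 and 990 CPM at 4 h, against 710, 593 and 598 CPM at 2 h. Replicate 1 was the highest at both times, and the change was 0.70 ± 0.17 (adjusted p = 0.0444). Higd1a, a protein of the inner mitochondrial membrane that low oxygen also induces, had 757, 716 and 756 CPM at 4 h, against 486, 467 and 517 CPM at 2 h. Hsbp1, which binds heat shock factor 1, had 1930, 2080 and 2040 CPM at 4 h, against 1380, 1450 and 1520 CPM at 2 h. Both transcripts rose, by 0.60 and 0.48 on the log2 scale. The fifth, 5730437N04Rik, is a clone name with a change of 0.80 (adjusted p = 0.0497), chosen after its values were seen. The 4 named rises kept their sign but missed the threshold under library size, the ribosomal reference, TPM, no filter and each library left out, with adjusted p-values up to 0.682.

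Factors of ribosome biogenesis were among the transcripts that fell. Of 55 measured, 9 fell (16.4%, against 2.31% of all genes) and 0 rose, and the list's median log2 change was -0.35 against 0.0095. With the block 17 fell (30.9%, against 7.38% of all genes) and 1 rose. The fallen members numbered 2, 2 and 7 without WT 4 h replicates 1, 2 and 3, and 6, 4 and 4 without WT 2 h replicates 1, 2 and 3. Ddx10, a nucleolar helicase, had 4.96, 6.30 and 5.11 CPM at 4 h, against 17.8, 16.1 and 17.6 CPM at 2 h, a change of -1.66 ± 0.19 (adjusted p = 3.4e-04). Its groups were well apart. Gnl3, the nucleolar GTPase nucleostemin of proliferating stem cells, had 28.6, 27.0 and 29.6 CPM at 4 h, against 59.9, 66.6 and 68.7 CPM at 2 h. Nob1, the endonuclease that makes the final cut of 18S rRNA, had 26.7, 22.4 and 25.7 CPM at 4 h, against 51.3, 52.2 and 49.4 CPM at 2 h. Both fell, by 1.2 and 1.03 on the log2 scale. Cirh1a, described above, and Brix1 belong to the same list. The remaining 4 fallen members, named after their values were seen, were the rRNA methyltransferase Nop2 at -1.49, the polymerase I and III subunit Polr1c at -1.06, and the small subunit factors Wdr43 at -0.87 and Nop14 at -0.81.

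Nuclear pore components were put in a list after values were seen, so that its count supports nothing on its own. Of 30 measured members 7 fell (23.3%, against 2.31% of all genes) and 0 rose, with a median of -0.31. Without WT 4 h replicates 1, 2 and 3 it was 1, 2 and 5 members, and without WT 2 h replicates 1, 2 and 3 it was 5, 4 and 5. Pom121, a membrane anchor of the pore, had 1.82, 1.34 and 2.39 CPM at 4 h, against 4.78, 6.27 and 5.86 CPM at 2 h, and Ranbp2, of the cytoplasmic filaments, had 24, 30.0 and 30.0 CPM against 61.0, 57.6 and 59.9 CPM. These fell by 1.59 and 1.09 on the log2 scale. Nup43, Nup50 and Nup54 changed by -1.32, -1.2 and -0.89. In a second such list, of general transcription factors, Mediator and Integrator subunits, 9 of 85 fell (10.6%) and 0 rose, with a median of -0.16. Here 3 or 4 fell when any 1 of the 6 libraries was left out. Med6, of the Mediator head, kept 47.4%, 55.1% and 42.3% of its 2 h level in the 3 replicates, and the Integrator subunit Ints12 kept 21.9%, 32.7% and 47.7%.

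Enzymes that acetylate, methylate or demethylate histones were a further group with falls. Of 54 measured, 8 fell (14.8%, against 2.31% of all genes) and 0 rose, with a median of -0.32, and 17 fell with the block (31.5%, against 7.38%). The count depended on every library, since 0, 0 and 2 members fell without WT 4 h replicates 1, 2 and 3, and 1 fell without each WT 2 h library. Kdm5b, a demethylase of H3K4, had 7.28, 8.78 and 14.0 CPM at 4 h, against 20.6, 29.2 and 24.1 CPM at 2 h, a change of -1.29 ± 0.25 (adjusted p = 0.0116). Setd1b, which methylates the same residue, had 4.65, 4.87 and 4.85 CPM at 4 h, against 10.6, 11.8 and 13.0 CPM at 2 h. Both fell, and their groups did not overlap. The acetyltransferases Myst2 and Myst3, now Kat7 and Kat6a, changed by -1.14 and -0.94. The others, named after their values were seen, were the H3K9 demethylase Kdm4c at -0.93, the H3K36 methyltransferase Setd2 at -0.85, the acetyltransferase Crebbp at -0.76 and the H3K9 methyltransferase Ehmt1 at -0.70.

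Most zinc finger transcripts had a negative change, though few passed the test. Of 314 measured Zfp-named genes 16 fell (5.10%, against 2.31% of all genes) and 0 rose, 261 had a negative log2 change, and the median was -0.42, whereas 6902 of all 14029 genes (49.2%) had a negative change. With the block 52 fell (16.6%, against 7.38%) and 0 rose. The fallen members numbered 5, 5 and 9 without WT 4 h replicates 1, 2 and 3, and 9, 7 and 9 without WT 2 h replicates 1, 2 and 3. Zfp828 had 4.02, 4.30 and 3.30 CPM at 4 h, against 14.1, 21.8 and 18.2 CPM at 2 h, a change of -2.22 ± 0.26 (adjusted p = 3.4e-04). Its replicate 3 kept 18.1%. Zfp426, Zfp110 and Zfp410 fell by 1.30, 1.18 and 1.04 on the log2 scale. Of 52 Zbtb, Zkscan and Zscan genes 3 fell (5.77%, against 2.31%) and 0 rose, with a median of -0.51. With the block 4 fell (7.69%, near the 7.38% of all genes) and 0 rose. The fallen members numbered 1, 2 and 2 without WT 4 h replicates 1, 2 and 3, and 3, 2 and 2 without WT 2 h replicates 1, 2 and 3. Zkscan1 had 32.3, 27.3 and 28.5 CPM at 4 h, against 72.9, 67.7 and 65.5 CPM at 2 h, and Zscan21 and Zkscan17 fell by 1.25 and 1.05. Members of such families share sequence, and how reads were shared among near-identical copies is not given in the sources used here.

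Without the block, immediate early transcripts were called about as often as all genes in the late interval, though most had a negative change. Of 51 measured, 1 fell (1.96%, against 2.31% of all genes), and 0 fell when any 1 of the 6 libraries was left out. The list's median CPM was 5.91 at 0 h, 1.28 at 2 h and 0.861 at 4 h. Its median log2 change was -0.36, against 0.0095 over all genes, and 34 members had a negative change (66.7%, against 49.2%). With the block 2 fell (3.92%, against 7.38%) and 0 rose. The 1 call without the block was Plk3, a stress-responsive kinase also on the list of p53 targets. It had 0.439, 0.477 and 0.194 CPM at 4 h, against 1.63, 1.01 and 1.2 CPM at 2 h (log2 change -1.80, adjusted p = 0.0469). Fos, the AP-1 subunit, averaged 15.3 CPM at 0 h, 2.02 at 2 h and 1.67 at 4 h, and Myc 51.2, 2.93 and 1.86 CPM. Egr1, a zinc finger factor induced by growth factors, averaged 23.8, 1.29 and 2.03 CPM at the 3 times. These 3 were chosen after their values were seen, and their WT groups at 4 and 2 h overlapped.

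Of 33 measured transcription factors of neural progenitors 3 fell (9.09%, against 2.31% of all genes) and 0 rose. Emx2, a patterning factor of the hippocampus, had 0.753, 0.477 and 0.970 CPM at 4 h, against 3.15, 3.79 and 3.14 CPM at 2 h, a change of -2.15 ± 0.40 (adjusted p = 0.00907). Olig2, a factor of progenitors that is also on the oligodendrocyte marker list, had 5.02, 7.25 and 5.76 CPM at 4 h, against 17.8, 12.9 and 21.9 CPM at 2 h. Its groups did not overlap, and it fell by 1.56 on the log2 scale (adjusted p = 0.0242). Sox2, which keeps neural stem cells undifferentiated, had 5.78, 6.97 and 9.70 CPM at 4 h, against 18.7, 20.4 and 19.2 CPM at 2 h. Its groups did not overlap, but its adjusted p was 0.0524 without the block and 0.00907 with it. With the block 8 of the 33 fell (24.2%, against 7.38%) and 1 rose. In the fit with no block 0 fell without WT 4 h replicate 1 or 2, and 1 fell without WT 4 h replicate 3 or WT 2 h replicate 1.

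Without the block, signalling lists held 0 to 2 calls each, which are small numbers to set against the 2.31% of all genes that fell. In the TGF-beta list 2 of 30 fell (6.67%) and 0 rose, and the median was -0.11. Tgfbr1, the type I receptor, had 11.5, 12 and 17.1 CPM at 4 h, against 25.5, 29.5 and 26.4 CPM at 2 h, a change of -1.0 ± 0.22 (adjusted p = 0.0202). Smad2, the signal transducer below it, had 14.6, 19.5 and 14.7 CPM at 4 h, against 28, 33.7 and 29.6 CPM at 2 h. It fell by 0.91 (adjusted p = 0.0395), and with the block 6 of the list fell (20.0%, against 7.38%). With the block 3 of 19 fell in the BMP list (15.8%) and 3 of 24 in the Notch list (12.5%). In the TGF-beta list, as in the BMP list, 1 member fell without WT 4 h replicate 3 and 0 fell without any other of the 6 libraries, and in the Notch list 0 fell without any 1 of the 6. In the BMP list 1 of 19 fell (5.26%). It was Id2, an inhibitor of basic helix-loop-helix factors, with 54.0, 38.8 and 67.3 CPM at 4 h, against 125, 107 and 146 CPM at 2 h (log2 change -1.24). In the Notch list 1 of 24 fell (4.17%), the DNA-binding effector Rbpj, with 19.1, 18.9 and 18.9 CPM at 4 h, against 41.6, 45.0 and 44.1 CPM at 2 h (log2 change -1.2). Notch1 itself changed by -0.84 (adjusted p = 0.105, and 0.00517 with the block).

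In the growth factor and ERK list 2 of 36 fell (5.56%, against 2.31% of all genes). These were the transcription factor Ets2, an ERK target, at -2.20 and the Ras exchange factor Sos1 at -0.80. In the list 1 member fell without WT 4 h replicate 1 or 2 or WT 2 h replicate 2 or 3. With the block 6 fell (16.7%, against 7.38%) and 1 rose. Of 32 Wnt pathway members 0 were called without the block and 4 fell with it (12.5%, against 7.38%). Fzd1, a Wnt receptor, had the smallest p of them and a change of -1.17 (adjusted p = 0.0783). In the clock list 1 of 24 fell without the block (4.17%, against 2.31%) and 1 with it (4.17%, against 7.38%). In both fits it was the kinase Csnk1d, with 6.97, 6.30 and 6.98 CPM at 4 h, against 18.5, 18.6 and 15.6 CPM at 2 h (log2 change -1.38). Of 23 Hippo pathway members 0 were called without the block and 1 fell with it (4.35%, against 7.38%). Of 29 interferon response genes 1 fell without the block (3.45%, against 2.31%), Irf9, which joins the STAT complex, at -1.11. Here 0 fell when any 1 of the 6 libraries was left out. With the block 2 of the 29 fell (6.90%, against 7.38%) and 0 rose.

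Of 46 mitosis genes 1 fell without the block (2.2%, against 2.31% of all genes) and 13 fell with it (28.3%, against 7.38%), and 39 had a negative change (84.8%, against 49.2%). Without the block 0 fell when any 1 of the 6 libraries was left out. Plk1, a kinase that drives mitotic entry, had 3.58, 2.39 and 2.00 CPM at 4 h, against 12, 8.20 and 6.65 CPM at 2 h. The replicates kept 29.9%, 29.1% and 30.2%, and the change was -1.74 ± 0.44 (adjusted p = 0.0459). Aurka, the kinase of spindle poles, had 18, 17.6 and 12.1 CPM at 4 h, against 62.4, 60.5 and 58.4 CPM at 2 h, and kept 26.2% of its 2 h mean. Its adjusted p was 0.0506 without the block and 0.00124 with it. Ttk of the spindle checkpoint changed by -1.32 and Ndc80 of the kinetochore by -1.13, with adjusted p-values of 0.00159 and 9.5e-04 in the blocked fit alone. Of 50 DNA replication genes 0 were called without the block, and 6 fell and 1 rose with it.

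Without the block, few genes of RNA turnover itself were called, at shares a little above that of all genes. Of 62 members of the decay machinery 2 fell (3.23%, against 2.31% of all genes), the decapping enhancer Edc3 at -1.54 (adjusted p = 0.0116) and the CCR4-NOT subunit Cnot2 at -0.79 (adjusted p = 0.0301). Cnot2 had 34.3, 39.3 and 45.6 CPM at 4 h, against 68.2, 64.9 and 73.2 CPM at 2 h. Of the list 1 fell without WT 2 h replicate 2 or 3, and 0 fell without any other of the 6 libraries. With the block 8 of the 62 fell (12.9%, against 7.38% of all genes) and 0 rose. A negative change was found in 45 (72.6%, against 49.2%), and the median was -0.22. Of 24 m6A writers, erasers and readers 1 fell (4.17%) and 0 when any 1 of the 6 libraries was left out. It was Zc3h13, a subunit of the writer complex, with 11.4, 13.1 and 12.9 CPM at 4 h, against 25.5, 22.4 and 23.1 CPM at 2 h. The list's median was -0.39, and with the block 3 of the 24 fell (12.5%, against 7.38%) and 0 rose. The readers Ythdf1 and Ythdc2 changed by -1.16 and -1.12 and passed with the block but not without it (adjusted p = 0.0164 and 0.00790).

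Ribosomal protein and respiratory chain transcripts had small positive changes. None of 79 cytosolic ribosomal protein genes passed the test, yet 0 had a negative change, the median was 0.34, and in 67 the libraries at 4 h lay above those at 2 h, against 15.7% of all genes. With the block 27 rose (34.2%, against 2.67% of all genes). Rplp2, of the ribosomal stalk, had 320, 291 and 247 CPM at 4 h, against 206, 190 and 206 CPM at 2 h, with an adjusted p of 0.0779 without the block and 0.0142 with it. The list's median was 0.15 under library size alone, 0.090 in TPM and 0.0034 against the ribosomal reference, which is made of the same genes. Of 75 nuclear-encoded respiratory chain genes 0 had a negative change, the median was 0.39, and 37 rose with the block (49.3%) and 0 without it. Atp5o, a subunit of ATP synthase, had 2410, 2590 and 2340 CPM at 4 h, against 1740, 1810 and 1890 CPM at 2 h.

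Mitochondrially encoded mRNAs are made by a polymerase of their own. Of 8 measured 1 fell (12.5%, against 2.31% of all genes) and 0 rose. It was mt-Nd1, with 1670, 1890 and 1880 CPM at 4 h, against 2970, 2780 and 3030 CPM at 2 h. Its change was -0.69 ± 0.16 (adjusted p = 0.0300), and 0 members fell when any 1 of the 6 libraries was left out. In the blocked fit 2 of the 8 fell and 0 rose, where 7.38% of all genes fell. These were mt-Nd1 and mt-Cytb, the latter at -0.36 (adjusted p = 0.0150, and 0.381 without the block). The list's median was 0.092, and it turned to -0.098 under library size. Of 75 mitochondrial ribosomal proteins 2 fell (2.67%, against 2.31% of all genes), Mrpl44 at -1.29 and Mrpl47 at -0.96. With the block 4 fell (5.33%, against 7.38%) and 5 rose (6.67%, against 2.67%). There 1 fell without WT 4 h replicate 3 and 0 without any other of the 6 libraries, whereas the list's median was 0.073, and -0.12 under library size. In the glycolysis and hypoxia list 1 of 37 rose, Bnip3, against 0.0356% of all genes, and the median was 0.37. With the block 7 of the list rose (18.9%, against 2.67% of all genes). Pdk1, which holds back pyruvate oxidation, had 77.9, 76.9 and 101 CPM at 4 h, against 60.4, 47.6 and 43.1 CPM at 2 h, and passed with the block but not without it (adjusted p = 0.0140). Of 38 quiescent stem cell markers 0 were called, with a median of 0.33 that turned to -0.010 against the ribosomal reference. With the block 7 of them rose (18.4%, against 2.67% of all genes).

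**Figure D3:**
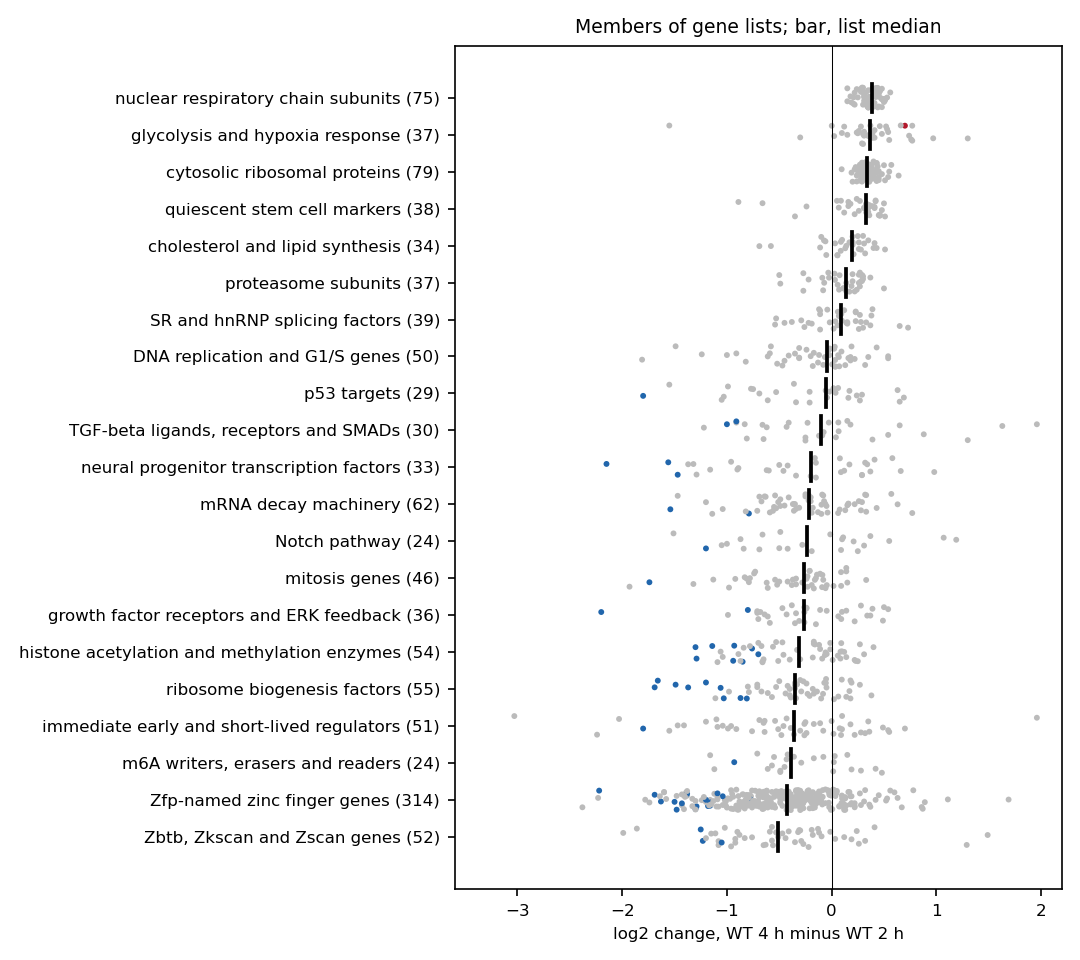
Log2 change, WT 4 h minus WT 2 h, of each measured member of 21 gene lists, with the number of members in brackets, a black bar at the list median, blue for genes that fell and red for genes that rose without the block. Lists run from nuclear respiratory chain subunits at the top (median 0.39) to Zbtb, Zkscan and Zscan genes at the bottom (median -0.51).

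Without the block, other lists held 1 call or none. Of 33 chaperones Dnajb4 fell (3.03%, against 2.31% of all genes), at -0.90. Of 32 ATF4 targets and aminoacyl-tRNA synthetases Iars, the isoleucyl-tRNA synthetase, fell (3.12%), at -0.97. Without WT 4 h replicate 3, 1 chaperone fell, and otherwise 0 in either list fell without any 1 of the 6 libraries. With the block 1 chaperone fell (3.03%, against 7.38%) and 2 rose (6.06%, against 2.67%). In the ATF4 list 2 fell with the block (6.25%) and 0 rose. Without the block, no gene was called in edgeR among 37 proteasome subunits, 39 SR and hnRNP splicing factors, 34 cholesterol and lipid synthesis genes, 12 snoRNA host genes, 13 nuclear long noncoding RNAs, 15 replication-dependent histones, 25 collagens, 15 matrix metalloproteinases and TIMPs or 48 protocadherins. With the block, 2 proteasome subunits fell and 1 rose, and 1 splicing factor fell and 2 rose. There 2 cholesterol and lipid synthesis genes fell and 1 protocadherin rose. The snoRNA host, long noncoding RNA, histone, collagen and metalloproteinase lists held 0 calls with the block. Sqle, the squalene epoxidase of cholesterol synthesis, fell by 0.68 on the log2 scale in the blocked fit (adjusted p = 0.0119), and Tra2a, a splicing regulator, rose by 0.65 (adjusted p = 0.0196).

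The same interval in the libraries labelled cKO, which share no library with the WT contrast, gave negative changes for most of the WT falls. There 111 genes fell (0.791%) and 0 rose in edgeR, with 1404 genes at an unadjusted p under 0.05. DESeq2 gave 342 falls and 11 rises, and the block gave 432 falls (3.08%) and 52 rises (0.371%). Of the 324 WT falls, 323 (99.7%) had a negative change in the libraries labelled cKO, against 46.0% of all genes. Shared by both were 74 fallen genes, 22.8% of the WT list and 66.7% of the other. The median change of the 324 genes was -0.76 in the libraries labelled cKO, against 0.043 over all genes. The count of 111 became 50 and 44 without cKO 2 h replicates 1 and 2, and 1 (AA987161) and 188 without cKO 4 h replicates 2 and 3. In a fit of those 6 libraries alone 0 genes fell.

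Across 14029 genes the late changes of WT and of the libraries labelled cKO had a Pearson correlation of 0.408 and a Spearman correlation of 0.525. Over the 5973 genes with at least 16 CPM they were 0.830 and 0.751. Genes are not independent replicates, and low counts enter the first pair of values. The difference between the 2 late changes was tested directly, and 0 genes passed in edgeR, with 259 at an unadjusted p under 0.05. DESeq2 called 1 gene, Ddx10, with a mean of 14.3 CPM at 4 h and 15.6 at 2 h in the libraries labelled cKO, and 5.46 at 4 h and 17.2 at 2 h in WT. Its edgeR difference, cKO minus WT, was 1.53 (adjusted p = 0.202). In limma on log2(TPM + 0.1) 1 gene was called, Snord12, with means of 0.0805 CPM at 4 h and 0 at 2 h in the libraries labelled cKO and 0 at both times in WT.

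**Figure D4:**
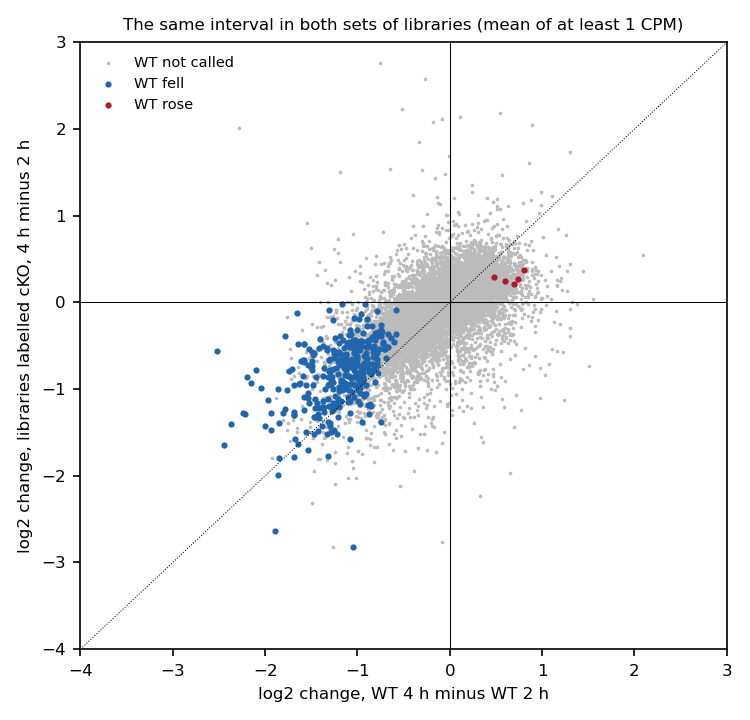
Log2 change at 4 h minus 2 h in WT on the horizontal axis and in the libraries labelled cKO on the vertical axis, for genes with a mean of at least 1 CPM over the 6 WT libraries, with the dotted line at equal change. Of all 324 genes that fell in WT, 323 have a negative value on the vertical axis.

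Late changes in WT were also set beside the early interval, 2 h against 0 h, in the libraries labelled cKO, which share no library with the WT late contrast. Of the 1382 genes that fell between 0 and 2 h there (9.85%), 149 fell late in WT (10.8%), and their median late change in WT was -0.46. Of the 310 that rose early (2.21%), 2 fell late, and the median was 0.27. Of the 12337 not called early, 173 fell late (1.4%), and the median was 0.040. Without cKO 2 h replicate 2 the early falls numbered 831 and the early rises 104, and without cKO 0 h replicate 3 the early rises numbered 586. With the block there were 2214 early falls (15.8%) and 1373 early rises (9.79%). Seen from the late list, 149 of 324 genes had fallen early there and 28 had a change of 0 or more. The median level of the 324 genes in WT was 46.5 CPM at 0 h, 20.7 CPM at 2 h and 9.40 CPM at 4 h.

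Named genes differed in how the early and late intervals compared in WT. The early values share the WT 2 h libraries with the late ones, so that an error at 2 h moves both in opposite directions, and they are given only side by side. Between 0 and 2 h 1926 genes fell in WT (13.7%) and 509 rose (3.63%), and with the block 2835 fell (20.2%) and 1910 rose (13.6%). The early rises numbered 200, 218 and 164 without WT 0 h replicates 1, 2 and 3, and 194 and 224 without WT 2 h replicates 2 and 3, and the early falls numbered 1189 without WT 2 h replicate 1. Mphosph10 averaged 259, 73.4 and 21.0 CPM at 0, 2 and 4 h, and Nup153 92.4, 25.1 and 9.34 CPM, which are falls in both intervals. Rasl11a, a small GTPase, averaged 123, 8.96 and 2.49 CPM. Plk1 averaged 8.61, 8.93 and 2.66 CPM, Traf4, an adaptor protein of receptor signalling, 23.3, 23.7 and 9.85 CPM, and Usp2, a deubiquitinase, 19.3, 22.6 and 9.50 CPM. These 3 fell late and were not called early (adjusted p = 0.946, 0.959 and 0.659), and the difference between intervals was not tested. Chrac1, a histone-fold protein of a chromatin remodelling complex, averaged 55.1, 49.1 and 20.3 CPM, with a late change of -1.27 ± 0.22 (adjusted p = 0.00536). Rasl11a, Traf4, Usp2 and Chrac1 were chosen after their values were seen.

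The m6A pull-down of untreated WT cells gave a separate readout of the same transcripts. Over the 14167 genes tested there, 858 were higher in the pull-down than in the input (6.06%) and 2023 were lower (14.3%), without a block. Of the 324 late falls 65 were higher (20.1%) and 19 lower (5.86%), against 6.39% and 15.1% of the genes tested in both. Their median pull-down log2 change was 0.18, against 0.0091. Of the 375 genes that rose with the block, 374 were tested and 248 were lower in the pull-down (66.3%), with a median of -0.59. The count of 858 was 557, 370, 343 and 347 without input 1, pull-down 1, input 3 and pull-down 3, and 2441 with the replicate block (17.2%).

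Among named genes, Msh6 had a pull-down log2 change of 0.43 (adjusted p = 0.0245), Mphosph10 one of 0.28 and Kbtbd2 one of 0.31. Cirh1a and Nup37, which also fell, were lower in the pull-down, at -0.38 and -0.48. Higd1a and Hsbp1, which rose, were at -1.01 and -0.59. Transcript length moved with both classes, since the median length relative to the median gene was 1.16 in the late falls, 0.424 in the rises with the block and 0.998 over all genes. Level differed between the classes too. The median WT CPM at 0 h was 46.5 in the late falls, 173 in the rises with the block and 12.4 over all genes. Length, level, pull-down and late change were not separated, and the part of each was not tested.

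**Figure D5:**
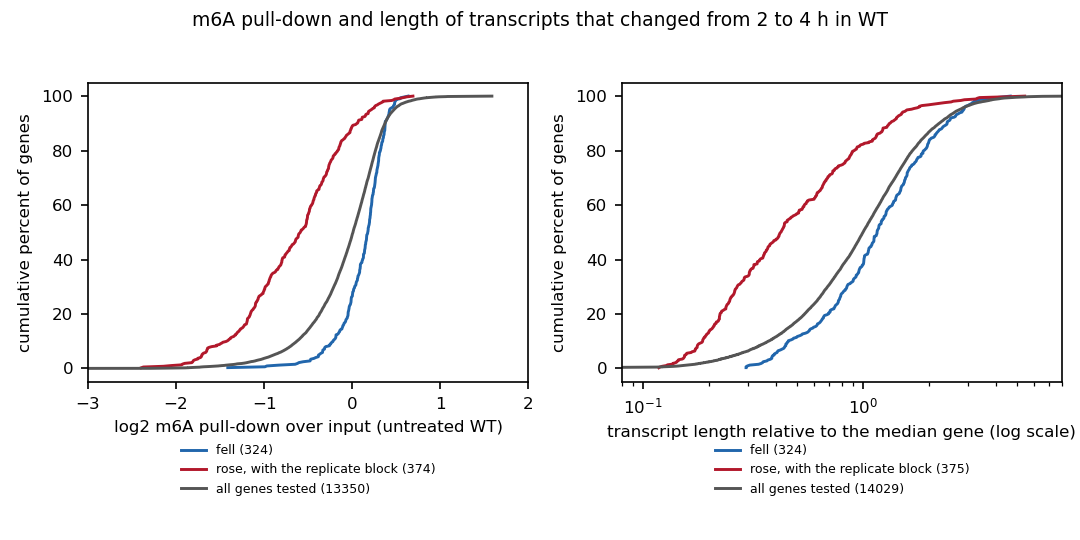
Cumulative percent of genes against the log2 ratio of m6A pull-down over input (left) and against transcript length relative to the median gene on a log axis (right), for late falls, for rises with the replicate block and for all genes tested. The curve of rises lies left of all genes in both panels (medians -0.59 and 0.424), and that of falls lies to the right at its median (0.18 and 1.16).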

How the data were processed

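RNA-seq libraries were made by a SMART-seq2 method and m6A libraries by a modified SMART-seq3 method, per the labels' protocols. Per the submitters' processing notes, bcl2fastq 2.17.1.14, Trimmomatic 0.32 and STAR 2.5.2a were used, with the genome build GRCm38. The counting tool is not given in the sources used here, and neither is its strand setting. The authors deposited whole-number count values and TPM values per gene symbol. Counts were the basis of all fits, and deposited TPM entered limma alternatives, marker sums and, with the counts, relative transcript length.

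Counts were fitted with edgeR 4.0.16 in R 4.3.3 (glmQLFit, TMM scaling, filterByExpr at its defaults) over all 18 RNA-seq libraries with 1 coefficient per genotype and time and 12 residual degrees of freedom. The contrast was WT 4 h minus WT 2 h. The 6 m6A libraries were fitted apart, with 4 residual degrees of freedom. Tests were two-sided, with Benjamini-Hochberg adjustment over all genes tested and a threshold of 0.05. SE is the log2 change divided by the square root of F. Normalized CPM use TMM library sizes.

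Residuals of same-numbered WT libraries at different times correlated at 0.126 to 0.286 in all 9 pairs (median 0.184), against a median of -0.111 for other numbers, so the labels' numbers were taken to pair the libraries. A fit with the number (within genotype) as a block had 8 residual degrees of freedom. No library pair was near-identical (highest correlation of log2 CPM 0.985).

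Named genes were Ythdf2, up to 12 called genes with the largest change per direction (at least 16 CPM over the 6 libraries, no clone or pseudogene name, groups apart) and 4 members with the smallest p per list. The comparison, its lists and the rule were chosen with earlier results of these data known. Coordinates are from RefSeq GRCm38.p6, where 24557 of 26621 symbols matched a symbol or a single synonym. Alternatives used DESeq2 1.42.0, limma 3.58.1 on log2(TPM + 1) and log2(TPM + 0.1), RLE, library size, a ribosomal reference, no filter, only the groups compared and each library left out. The fits were tested on simulated data. The YTHDF2 pull-down libraries were not used here, since titles and descriptions name Input and YTHDF2 the other way round. Values of some single genes are not reported here.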

Additional observations from a re-analysis of the deposited data

How the results depend on the processing

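Counts are given as genes called lower and higher. For WT late loss (324 and 5), library size gave 904 and 0, the ribosomal reference 1352 and 0, no filter 0 higher, DESeq2 640 and 114, TPM + 1 917 and 2, TPM + 0.1 1114 and 0, the compared groups alone 1513 and 680, and the pairing block 1035 and 375. Chosen after seeing the data, the 9 WT libraries gave 1756 and 1068, with the block 2291 and 1966, library size with the block 1865 and 27, and all WT libraries of 1 number left out 0 to 5 and 0. Leaving out 1 library gave 54 to 164 lower and 0 to 0 higher.

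For late loss in libraries labelled cKO (111 and 0), library size gave 384 lower, the ribosomal reference 700 lower, no filter 1 higher, DESeq2 342 and 11, TPM + 1 329 and 2, TPM + 0.1 399 and 3, the compared groups alone 0 lower, the pairing block 432 and 52, and 1 library left out 1 to 188 lower and 0 to 2 higher. For the difference (0 and 0), DESeq2 and TPM + 0.1 gave 1 higher each, and the block 0 and 0, with 571 at an unadjusted p under 0.05.

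For early loss in WT (1926 and 509), RLE gave 780 higher, library size 162 higher, the ribosomal reference 3494 and 27, DESeq2 1124 higher, TPM + 1 3160 and 90, TPM + 0.1 2923 and 86, the compared groups alone 3596 and 2932, the pairing block 1910 higher, and 1 library left out 1189 to 1509 lower and 164 to 380 higher. For early loss in libraries labelled cKO (1382 and 310), library size gave 170 higher, the ribosomal reference 2924 and 34, no filter 202 higher, DESeq2 541 higher, TPM + 1 2114 and 121, TPM + 0.1 120 higher, the compared groups alone 519 and 10, the pairing block 2214 and 1373, and 1 library left out 831 to 1548 lower and 104 to 586 higher. For the m6A pull-down (2023 and 858), the block gave 2441 higher, and 1 library left out 1477 to 1934 lower and 343 to 841 higher.

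None of the 86 named genes called in WT changed sign under the alternatives run, whereas 18 of the 151 named genes not called did under at least 1. The cause of the moves was not tested, except that leaving out libraries also leaves fewer degrees of freedom. Low counts limit calls, and the lack of a spike-in limits the direction of small changes.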

Other observations

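Other transcripts that fell late belonged to families outside the lists, and the examples were chosen after their values were seen. Sin3a, the scaffold of a histone deacetylase complex, had 4.77, 7.35 and 7.50 CPM at 4 h, against 15.3, 14.0 and 15.7 CPM at 2 h, a log2 change of -1.2 ± 0.19 (adjusted p = 0.00381). Foxo1, a transcription factor under insulin signalling, changed by -1.30. Nmd3, which exports the large ribosomal subunit, averaged 20.4 ± 3.01 CPM at 4 h and 47.1 ± 2.12 CPM at 2 h (SD, n = 3 each), and Dnttip2, a nucleolar protein, 59.5 ± 3.66 and 143 ± 13.1 CPM. Ccnf, the F-box cyclin, kept 28.2%, 27.6% and 24.2% of its 2 h level in the 3 replicates, and Irgm1, an interferon-induced GTPase, kept 40.4%, 40.5% and 39.4%.

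The most negative called change was that of Dbr1, the enzyme that opens intron lariats, with 0.0628, 0 and 0.129 CPM at 4 h, against 0.758, 0.619 and 0.890 CPM at 2 h. Such levels rest on few reads. Transcripts often used as references were higher in all 3 libraries at 4 h. Actb averaged 7110 ± 449 CPM at 4 h and 4820 ± 261 CPM at 2 h, and Gapdh 1010 ± 105 and 765 ± 14.3 CPM (SD, n = 3 each). Neither passed the test without the block (adjusted p = 0.252 and 0.409), and Actb passed with it (adjusted p = 0.0471).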
